A study of Ovis aries with 36 samples.

Results

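The loci described here are stretches of the sheep genome that the transcript assembly of the study placed between annotated genes. They carry no Ensembl identifier, their span overlaps no locus that carries one, and they were chosen by their total count, at least 180 summed over 36 muscle samples. Of 31136 assembled loci, 2136 met the rule (6.86%), and they are 2136 of the 4479 unannotated loci that lie clear of Ensembl loci. The 4 unannotated loci with the most counts, which held 65.7% to 78.3% of each library, were left out of the rule. Of all 6373 unannotated loci, another 1893 overlap an Ensembl locus and 1 has no span in the files.

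Transcription between annotated genes is a regular feature of mammalian RNA-Seq. Loci assembled there include long non-coding RNAs, unannotated exons and ends of neighbouring genes, and genes missing from an annotation. Skeletal muscles differ in their mix of slow oxidative and fast glycolytic fibres, and slow fibres use their own set of contractile and calcium-handling proteins, such as the troponins TNNT1, TNNC1 and TNNI1 and the calcium pump ATP2A2.

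The libraries came from 4 unrelated Poll Dorset cross-bred lambs aged 14 months, given soy crop and sorghum supplement after weaning and sampled directly after slaughter. Each lamb gave the same 9 muscles, so there were 4 samples per muscle and no treated or control group. From the hind limb and rump came Rectus femoris (RF), Adductor (AD), Semitendinosus (ST), Semimembranosus (SM), Gluteus medius (GM) and Gluteobiceps (GB), from the loin Psoas major (PM) and Longissimus lumborum (LL), and from the shoulder Supraspinatus (SS). Bulk tissue from the superficial belly of each muscle was sequenced, so a lower level may reflect fewer cells of a type or less RNA per cell, and these cannot be told apart.

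Depth was 3699148 to 6427422 counts per library (median 5905902). Expression is given as CPM, the count scaled to a fixed TMM-normalized library size, on which 3 counts equal 0.352 to 1.03 CPM in a library, a limit that covers counting error only. Normalization factors ran from 0.661 to 1.36 and fell as the share of the 4 left-out loci rose (r = -0.827, 36 libraries, which share lambs and muscles). The placed slow-fibre genes were present in every muscle: TNNT1 had 23.3 ± 6.98 CPM in ST and 258 ± 21.3 CPM in PM (mean ± SD, n = 4), and ATP2A2 56.2 ± 10.4 CPM in ST and 425 ± 86.3 CPM in PM. Markers of other cell types could not be paired with loci and were not analysed here.

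The unannotated loci were short and close together. Their median span was 1967.5 bases (106 to 190788), and the median distance to the nearest Ensembl locus was 21776 bases, with 262 within 1000 bases and 576 within 5000 bases. On chromosomes lay 2056 of them, most on X (183), 3 (178), 1 (171) and 2 (150), and 80 lay on 70 unplaced scaffolds. They filled 789 gaps between neighbouring Ensembl loci, 519 of which held 1 member. At the other end, 14 gaps held at least 20 members each and 440 in all, led by 46 between 213098371 and 213376269 of chromosome 2 and 45 between 30849844 and 31070210 of chromosome X. A span is that of a whole assembly bundle, and 84 members shared theirs with another assembled locus, 35 of them at 24056993 to 24247780 of chromosome 15. Such loci are counted apart but are not independent of each other.

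Most of these loci were weakly expressed. The total count chose them, so their levels are a description and were not tested. The median member had 1.52 CPM (median over 36 libraries), compared with 1.84 CPM for unannotated loci that overlap an Ensembl locus and 4.39 CPM for Ensembl loci with at least 180 counts. A level of at least 10 CPM was reached by 120 members (5.62%) and by 26.3% of the Ensembl loci, and 8 members reached 100 CPM. Counts were found in all 36 libraries for 1542 members, while 1134 members had fewer than 360 counts in all. At the limit, 14 members had exactly 180 counts, among them XLOC_002671, XLOC_002728 and XLOC_002733 on chromosome 1. Just outside it, XLOC_025683 on chromosome 6, XLOC_028469 on chromosome 9 and XLOC_031095 on chromosome X had 179 counts.

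**Figure D1:**
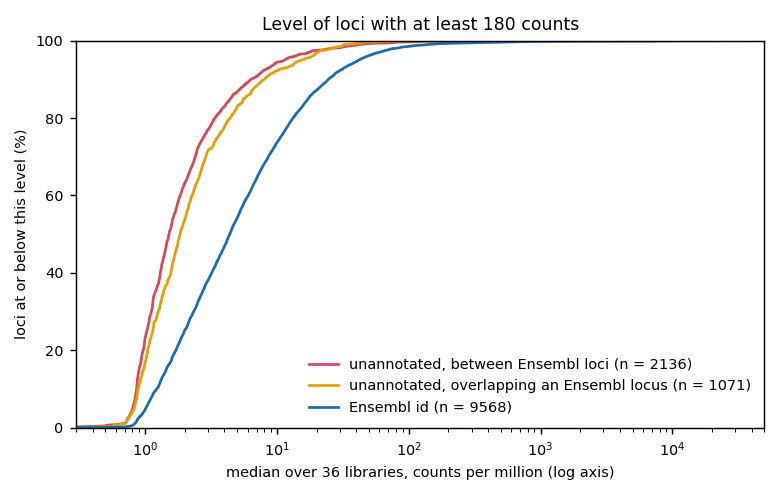
Cumulative share of loci (y axis, %) at or below a given median level over 36 libraries (x axis, CPM, log axis) for the 3 kinds of loci with at least 180 counts. The curve of unannotated loci between Ensembl loci lies to the left of the others, with a median of 1.52 CPM against 4.39 CPM for Ensembl loci.

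A pair of short loci held 62% of all counts of the members. XLOC_014673, 388 bases on chromosome 2 from 161512014 to 161512401, ranged over the 36 libraries from 6390.0 to 14992 CPM (median 8945). XLOC_030796, 189 bases on chromosome X from 3839190 to 3839378, ranged from 5033 to 11225 CPM (median 7384). Neither passed the joint test of the 9 muscles (FDR = 0.182 and 0.214, quasi-likelihood test of edgeR, adjusted by Benjamini-Hochberg over all 12780 loci with at least 180 counts, as for every FDR given here) or the joint test of the 4 lambs (FDR = 0.947 and 0.197). XLOC_011863 on chromosome 19 from 20253210 to 20253622 was the sixth by level, at 93.4 to 202 CPM (median 126), and did not pass either (FDR = 0.166 and 0.123).

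The third by level, XLOC_030469 on chromosome X from 56352347 to 56352932, differed among muscles (joint FDR = 0.00192). It had 762, 561, 507 and 499 CPM in ST of lambs 1 to 4 and 766, 670.3, 574 and 498 CPM in SS, compared with 1028, 913, 1161 and 1538 CPM in SM. The values of SM did not overlap those of ST or SS, although no muscle passed against the mean of the other 8 (ST, log2FC -0.70, SE 0.17, FDR = 0.0112, and SS, log2FC -0.57, SE 0.19, FDR = 0.0378, where log2FC is the fitted log2 fold change and SE the standard error of the 4 within-lamb log2 differences). It lies 886 bases from ENSOARG00000024080, which had 21.3 ± 3.75 CPM in ST and 65.5 ± 22.2 CPM in PM, and both varied together across the 36 libraries (r = 0.762). The joint call was lost without lamb 3 (FDR = 0.0528) and without lamb 4 (FDR = 0.122).

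Among the better expressed members were also the most even loci. With at least 10 CPM, the smallest spread belonged to XLOC_004997 on chromosome 12 from 2771229 to 2776966, which stayed within 20.7 to 38.4 CPM (median 28.3), XLOC_027144 on chromosome 7 from 97679797 to 97686123, within 11.6 to 21.2 CPM (median 16.9), and XLOC_014897 on chromosome 20 from 3814725 to 3866261, within 32.1 to 65.2 CPM (median 47). They were picked for this spread, so it is a description.

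Muscle and lamb both marked these loci. In the joint test of the 9 muscles 193 of the 2136 members passed an FDR of 0.01, or 9.04%, where 8.5% of all 12780 tested loci were called. In the joint test of the 4 lambs 409 passed, or 19.1%, where 16.2% of all loci were called. The share for muscle was near that of all loci, and also near that of unannotated loci overlapping Ensembl loci (8.78%) and of Ensembl loci (8.35%). The share for lamb lay between those of the same kinds (33.7% and 13.5%). Both tests were passed by 87 members, 106 passed for muscle alone, 322 for lamb alone and 1621 for neither. A lamb cannot be told apart from anything that all its libraries share, and in each muscle the library of lamb 1 had the fewest counts. The study used 4 lanes with 9 samples each and does not state which samples shared a lane.

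Part of these calls changed when a lamb was left out. With lambs 1, 2, 3 and 4 left out in turn, 122, 121, 82 and 82 members differed among muscles, and 34 of the 193 were called in every one of these fits. For lambs the counts were 244, 325, 228 and 277. Each such fit has 1 lamb fewer, and the part of this smaller number was not tested. Without their highest muscle 164 members would have fallen under 160 counts, which is 180 scaled to 8 of 9 muscles, and they had entered through that muscle. They held 14 of the 193 calls, and among the other 1972 members 9.08% were called. In the same way 296 members rested on 1 lamb, and they held 58 of the 409 calls for lamb.

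As a set, the unannotated loci were low in SM and ST. The median log2FC of the members against the mean of the other 8 muscles was -0.27 in SM and -0.18 in ST, and it was 0.17 in GB and 0.18 in GM, where the median over all tested loci lay between -0.01 and 0.02 in the 9 muscles. SM was the lowest muscle for 31.9% of members and for 16.3% of all loci, and ST for 22% and 14.4%. Members were most often highest in SS (18.7%), LL (16.7%), GM (16.1%) and GB (15.6%). Over all tested loci these shares were 12.9%, 10.8%, 9.8% and 8.98%. The muscle most often highest over all loci was SM, at 17.2%, against 5.15% of members.

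The libraries did not all show this. Set against the other 8 muscles of the same lamb, the median member differed on the log2 scale by -0.47, 0.05, -0.43 and -0.27 in SM of lambs 1 to 4, so SM of lamb 2 stood apart. In ST the values were -0.25, -0.17, 0.06 and -0.27, with lamb 3 apart. Ensembl loci moved little, from -0.07 to 0.10 over the 36 libraries. The member medians varied with the TMM factors (r = 0.726) and with the medians of unannotated loci that overlap Ensembl loci (r = 0.97), across 36 libraries that share lambs and muscles. The factor was 0.661, 1.21, 0.685 and 0.982 in SM, and the part of library composition in the difference was not tested. Under the other size factors and totals the member median stayed between -0.31 and -0.27 in SM. It was -0.50 in SM without lamb 2 and -0.28 in ST without lamb 3.

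**Figure D2:**
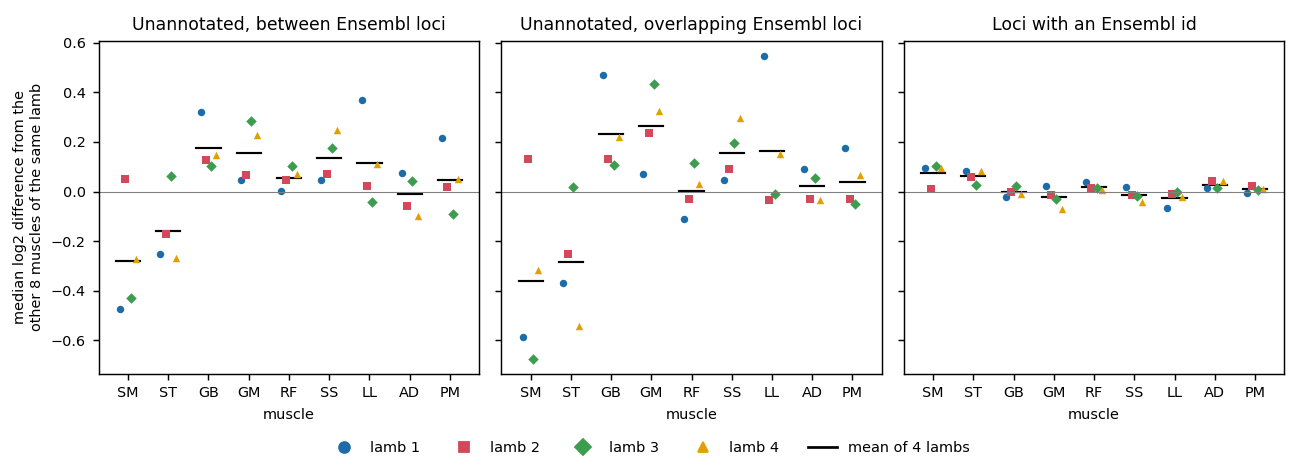
Each point is a library (x axis, muscle; colour and shape, lamb) and the y axis gives the median over loci of the log2 difference in CPM from the other 8 muscles of the same lamb, for the 3 kinds of loci; lines are means of 4 lambs. Members and overlapping unannotated loci fall below 0 in SM and ST, except in SM of lamb 2 and ST of lamb 3, while Ensembl loci stay between -0.07 and 0.10.

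Each muscle was set against the mean of the other 8, with an FDR no larger than 0.01 and a change of more than 1 on the log2 scale. In this way 131 different members were called in at least 1 muscle. The share over all tested loci was computed for each muscle and direction, not for this total. SS had the most, with 42 members higher (background over all tested loci 0.931%) and 27 lower (0.43%). SM had 3 higher (0.211%) and 30 lower (0.321%), and LL had 26 higher (0.376%) and 2 lower (0.141%). ST had 11 higher (0.673%) and 14 lower (0.72%). Per 2136 members, 42 are 1.97%, 27 are 1.26%, 30 are 1.4% and 26 are 1.22%, each above its background, whereas the shares in ST (0.515% and 0.655%) were not. Without their highest muscle, 8 of the 42 members higher in SS and 3 of the 26 higher in LL would have fallen under 160 counts. The same held for 1 member higher in GM and 1 higher in RF. They had entered the set through that muscle, so their calls are a description. The 30 members lower in SM compare with 8 of 1071 unannotated loci that overlap an Ensembl locus (0.747%) and 3 of 9568 Ensembl loci (0.0314%). Of the 30, 1 was called in each of the 4 fits with a lamb left out.

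The other muscles had fewer calls. PM had 12 members higher (0.29%) and 0 lower (0.0313%), GM 8 higher (0.11%) and 0 lower (0.0%), RF 2 higher (0.117%) and 3 lower (0.0548%), AD 3 higher (0.0391%) and 0 lower (0.00782%), and GB 1 higher (0.0548%) and 0 lower (0.0%). Where edgeR gave 0 lower members, 13 in PM, 8 in GM, 18 in AD and 37 in GB had an unadjusted p under 0.05 with a log2FC below -1, and DESeq2 also gave 0 in each.

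Most of these counts changed when a lamb was left out. Without lambs 1, 2, 3 and 4 in turn, SS had 71, 15, 10 and 32 members higher and 20, 10, 12 and 19 lower, SM had 3, 1, 1 and 0 higher and 6, 23, 3 and 4 lower, LL had 12, 23, 21 and 25 higher and 1, 0, 0 and 0 lower, and ST had 7, 9, 8 and 7 higher and 9, 9, 16 and 3 lower. In the same order PM had 8, 5, 9 and 4 higher, GM 18, 4, 2 and 4 higher, RF 1, 1, 0 and 1 higher and 2, 2, 1 and 1 lower, AD 1, 3, 3 and 3 higher and GB 0, 2, 0 and 0 higher. Without SM of lamb 2 alone, 1 member was higher in SM and 12 in GM, and without LL of lamb 2 alone 57 were higher in SS, 2 in GB and 1 was lower in LL.

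**Figure D3:**
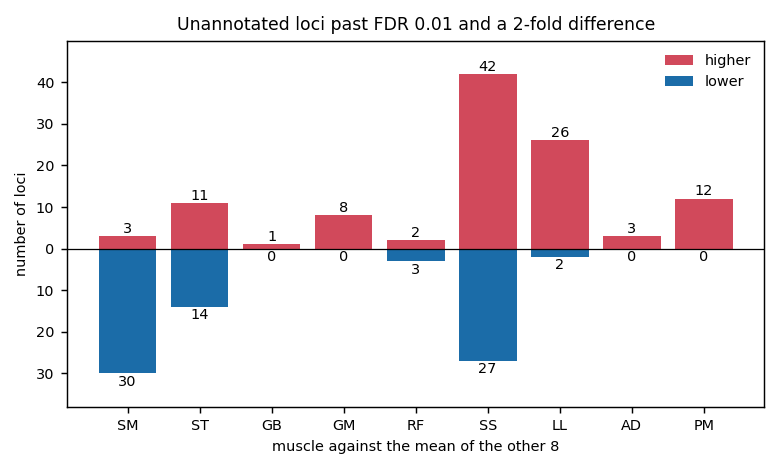
Number of unannotated loci (y axis) called higher (bars above 0) or lower (bars below 0) in each muscle (x axis) than in the mean of the other 8, with the number beside each bar. SS has 42 higher and 27 lower, SM has 30 lower against 3 higher, and LL has 26 higher against 2 lower.

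Many calls fell on runs of neighbouring loci. In 11 gaps between Ensembl loci at least 3 members were called in a contrast, 59 members in all, and within a run the median pairwise r between members ran from 0.473 to 0.903. The runs were picked for their calls, so the summed levels below are a description of them. Adjacent members under 5000 bases apart had a median r of 0.484 across the 36 libraries (968 pairs), and 0.819 where both had at least 1000 counts (64 pairs).

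The run with the most called members lies on chromosome 22 from 30151200 to 30252703. All 10 members in the gap were lower in SS, 5 were higher in LL and 3 higher in PM. The summed level was 48.8, 23.9, 35.4 and 21.7 CPM in SS of lambs 1 to 4, 475, 238, 221 and 109 CPM in LL and 239, 228, 238 and 169 CPM in PM. SS was below the other two muscles without overlap. The main member was XLOC_016911, from 30154699 to 30203274, with 19.4 ± 8.68 CPM in SS (log2FC -2.25, SE 0.16, FDR = 2.3e-06) and 162 ± 103 CPM in LL (log2FC 1.18, SE 0.36, FDR = 0.000665). The call in LL was lost without lamb 1 (log2FC 0.83, FDR = 0.0702) and without lamb 2 (log2FC 1.11, FDR = 0.0108). The Ensembl locus next to it, ENSOARG00000010208, whose symbol the files do not give, had 10.7 ± 4.6 CPM in SS and 39.9 ± 23.7 CPM in LL, and its r with XLOC_016911 was 0.89 at a distance of 49533 bases. XLOC_016911 also differed among lambs (FDR = 0.00711).

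A run on chromosome 3 from 138819344 to 138863155 had its 8 members higher in LL, 5 of them also in GM and 3 in PM, with 7 lower in SS and 3 in RF. Its summed level was 21.8, 59.7, 56.2 and 13.3 CPM in LL and 7.95, 36.6, 50 and 10.9 CPM in GM of lambs 1 to 4, compared with 0.92, 1.01, 2.98 and 0.953 CPM in SS and 0.394, 2.92, 3.49 and 0.365 CPM in RF. Lambs 2 and 3 were above lambs 1 and 4 in LL, GM and RF. The member XLOC_021985, with 199 counts in all and a mean of 2.88 CPM in LL, had entered the set through LL, so its call there is a description. 

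Of the 30 members lower in SM, 8 lie in a run on chromosome 15 and 5 in a run on chromosome 25. On chromosome 15, the 8 are among 37 members in the gap and have the shared span given above, and they summed to 19.6, 10.6, 29.8 and 18.3 CPM in SM compared with 55.4, 38.7, 92.2 and 55.3 CPM in SS. On chromosome 25 from 33104413 to 33251513, 5 members were lower in SM and 3 higher in SS, and the 7 called members summed to 17.5, 17.9, 21 and 14.3 CPM in SM and 60.7, 52.1, 101 and 48.4 CPM in SS. SM and SS did not overlap in either run. Lamb 3 was high in both, with a mean over its 9 muscles of 74.5 CPM on chromosome 15 and 63.7 CPM on chromosome 25, where the other lambs had 27.8 to 46.3 and 26.9 to 39.9 CPM. A run on chromosome 9 from 1141181 to 1256305 had 2 members lower in SM and 2 higher in SS, at 3.75 ± 1.57 and 14.9 ± 5.7 CPM in sum.

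SS and LL stood at opposite ends in 3 further runs, in either direction. On chromosome 17 from 30494489 to 30517062, 3 members were higher in SS and 1 lower in LL, with sums of 9.11 ± 4.12 CPM in SS and 1.46 ± 0.99 CPM in LL. The opposite was seen on chromosome 9 from 94549136 to 94594923, with 3 members lower in SS and 1 higher in LL (11.8 ± 4.38 and 39.8 ± 6.72 CPM), and on chromosome X from 30872798 to 31070210, with 2 lower in SS and 2 higher in LL (14 ± 0.791 and 41.4 ± 8.48 CPM). On chromosome 1 from 3301434 to 3336612, 3 members were higher in SS, 1 was higher in GM and 1 lower in SM, with sums of 10.5 ± 3.07 CPM in SS and 2.86 ± 0.436 CPM in SM.

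A few members followed the slow-fibre genes. Over the 36 libraries, the median r with the 8 slow-fibre genes that could be placed (TNNT1, TNNC1, TNNI1, ATP2A2, MYOZ2, MYL3, CASQ2 and TPM3) was 0.867 for XLOC_001012, the largest of the 2136 members, while the median member had 0.0877 and 9 members were above 0.6. These genes themselves had a median r of 0.885 with each other. XLOC_001012 lies on chromosome 1 from 230473614 to 230478546, at a position where the study lists an unannotated transcript found in these samples, so its direction is not independent evidence. It had 0.808, 0.874, 0.83 and 0.867 CPM in ST of lambs 1 to 4, 17.7, 12.9, 28.8 and 15.2 CPM in SS and 14.9, 14.6, 20.9 and 20 CPM in PM. ST lay below both without overlap, and the locus was lower in ST (log2FC -3.21, SE 0.16, FDR = 6.2e-05) and higher in SS (log2FC 1.77, SE 0.16, FDR = 2.1e-05) and PM (log2FC 1.72, SE 0.12, FDR = 8e-05). By comparison TNNI1 had 5.64 ± 3.5 CPM in ST, 59.4 ± 18.1 CPM in SS and 64.9 ± 9.16 CPM in PM.

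Next in this order came XLOC_010000 (median r 0.785) and XLOC_010003 (0.742) of a run of 3 members on chromosome 16 from 19691070 to 19752213, with XLOC_010014 (0.688) further down. All 3 were lower in ST, 2 were higher in PM, and SS and GB had 1 higher member each. The run summed to 0.269, 0, 1.66 and 0 CPM in ST, 5.85, 6.27, 15.1 and 8.93 CPM in PM and 10.8, 4.51, 13.3 and 6.52 CPM in GB, and PM and GB lay above ST in every lamb. XLOC_010000 was higher in GB (log2FC 1.52, SE 0.38, FDR = 0.00187), a call lost without lamb 1 (FDR = 0.17), lamb 3 (FDR = 0.0103) or lamb 4 (FDR = 0.0228). In the other direction, XLOC_029313, on an unplaced scaffold from 2013 to 2958, had a median r of -0.527. It was high in both ST, at 20.5, 13.6, 14.1 and 23.6 CPM (log2FC 2.03, SE 0.20, FDR = 1e-06), and LL, at 7.31, 32.1, 15.6 and 12.1 CPM (log2FC 1.92, SE 0.49, FDR = 5.5e-06), and its means in the other muscles were 2.46 to 4.8 CPM.

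Some members resembled an annotated neighbour, among them the pair described next. XLOC_015748 begins 79 bases from ENSOARG00000002495 on chromosome 20 from 49762606 to 49765006, also at a position the study lists as an unannotated transcript. It had 6.19, 3.06, 13.1 and 7.15 CPM in ST of lambs 1 to 4, 5.52, 1.87, 4.21 and 1.14 CPM in SS, 4.53, 1.61, 4.66 and 1.64 CPM in RF and 0.344, 0, 0 and 0.161 CPM in SM. ST, SS and RF lay above SM in every lamb. It was higher in ST (log2FC 3.11, SE 0.36, FDR = 1.9e-10), SS (log2FC 1.68, SE 0.32, FDR = 0.000465) and RF (log2FC 1.66, SE 0.21, FDR = 0.00264) and lower in SM (FDR = 0.00297), where it had 2 counts over the 4 libraries, so that no fold is given. The call in ST passed without any 1 lamb, whereas that in SM was lost in each such fit (FDR = 0.0146 to 0.028), that in RF without lamb 1, 3 or 4 (FDR = 0.0197, 0.0954 and 0.0101) and that in SS without lamb 3 (FDR = 0.0163). ENSOARG00000002495 had 32.2 ± 27.3 CPM in ST, 16.3 ± 7.26 in RF, 11.7 ± 5.34 in SS and 1.11 ± 0.549 in SM, and r between them was 0.938.

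The other, XLOC_002367, lies 16934 bases from SIM2, a transcription factor gene, on chromosome 1 from 266994223 to 267001200. It had no count in ST of any lamb, and 5.51, 6.26, 9.02 and 5.54 CPM in AD and 5.5, 2.58, 5.05 and 5.46 CPM in SM. AD and SM did not overlap with ST, RF, SS or PM. With 3 counts over the 4 ST libraries as the floor, ST was at least 18.3-fold lower than the mean of the other 8 muscles (FDR = 9.2e-06), and the locus was higher in AD (FDR = 2.4e-07) and SM (FDR = 0.000115, with 0.012 without lamb 4). SIM2 had 0.0542 ± 0.108 CPM in ST, 4.04 ± 1.74 in AD and 3.36 ± 1.17 in SM, with r = 0.89 between both.

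Such likeness was not the rule. Across the 36 libraries the median r with the nearest Ensembl locus was 0.306 for members within 1000 bases of it (235 with a tested neighbour), 0.223 from 1000 to 5000 bases (252) and 0.052 at 100000 bases or more (167). It was above 0.7 for 23 of the first group. Where both neighbours were tested, the median r of members within 1000 bases was 0.265 with the nearer and 0.0661 with the farther one. All these libraries share lambs, depth and low counts. Of the 350 members at least 100000 bases from any Ensembl locus, 63 differed among muscles and 134 among lambs, shares of 18% and 38.3%, against 9.04% and 19.1% of all members. Over all 12780 tested loci these shares were 8.5% and 16.2%. The 350 include runs of neighbouring loci that vary together, such as the 8 members on chromosome 3, so they are not independent of each other.

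The crowded gaps differed from each other. Among 37 members from 45932277 to 46354670 of chromosome 7, 17 differed among muscles and 24 among lambs, and in sum they reached 305 CPM in SM, the lowest muscle, and 633 CPM in SS. Among 23 members from 33094507 to 33251513 of chromosome 25, 11 differed among muscles and 22 among lambs. Lamb but hardly muscle was called on chromosome 2, where among 46 members from 213098371 to 213376269 of chromosome 2, 1 differed among muscles and 23 among lambs. The reverse held on chromosome X, where among 45 members from 30849844 to 31070210 of chromosome X, 9 differed among muscles and 1 among lambs. Calls were also frequent on unplaced scaffolds, with 17 of 80 members for muscle (21.25%) and 22 for lamb (27.5%). On chromosomes these were 176 (8.56%) and 387 (18.82%) of the 2056. Of all 12780 tested loci, 8.5% differed among muscles and 16.2% among lambs. Members of 1 gap lie side by side and are not independent, so these counts were not compared by a test.

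In PM and GM the leading calls differed in how the lambs bore them. XLOC_029372, on an unplaced scaffold from 23 to 191, had 16.4, 28.8, 16.1 and 18.6 CPM in PM of lambs 1 to 4 (log2FC 1.61, SE 0.24, FDR = 8.7e-06), with means of 4.11 to 11.2 CPM in the other muscles, and PM was the highest muscle of lambs 1 to 3, while SM of lamb 4 had 20.7 CPM. XLOC_005907, on chromosome 12 from 69113902 to 69118743, had 2.27, 1.19, 22.1 and 2.23 CPM in GM (log2FC 3.03, SE 0.64, FDR = 6.3e-06). With 214 of its 349 counts in GM, it had entered the set through that muscle, so its call is a description. Lamb 3 stood far above the rest, and without it the FDR was 0.0105 at a log2FC of 2.23.

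Some loci were on in some lambs and nearly without counts in others. XLOC_003107, 114130 bases on chromosome 10 from 70561481 to 70675610, had 1 count over the 9 libraries of lamb 1 and 41 over those of lamb 3, compared with 585 in lamb 2 and 515 in lamb 4. Its mean over 9 muscles was 0.025, 10.1, 0.799 and 9.24 CPM in lambs 1 to 4. The lambs did not overlap in any muscle between the pairs 1 and 3 against 2 and 4, and lamb took up 98% of the variance of log2 CPM (FDR = 2.1e-21), with no call for muscle (joint FDR = 0.55). XLOC_029319, on an unplaced scaffold from 1709 to 2675, had 193 and 216 counts in lambs 1 and 2 and 1 each in lambs 3 and 4 (FDR = 1.7e-18). In all, 6 members had at most 3 counts over the 9 libraries of some lamb, where 9 of all 12780 tested loci did, and 3 of the 6 lie on unplaced scaffolds. XLOC_027822 on chromosome 8 from 63193712 to 63195090 was the only member without a single count in a lamb, with 0 in lamb 1 and 44, 89 and 117 in lambs 2 to 4, and was chosen after its values were seen.

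On chromosome 6, lamb and muscle came together. XLOC_025742, XLOC_025745 and XLOC_025746, from 43198001 to 43217622, lie next to ENSOARG00000005581 and were called higher in LL. With 192 of 304 and 90 of 207 counts in LL, XLOC_025742 and XLOC_025746 had entered the set through that muscle. XLOC_025745 had 59.6, 0.532, 0.173 and 0.162 CPM in LL of lambs 1 to 4, 26.3, 0.437, 1.1 and 0 CPM in AD and 18.5, 0, 0.209 and 0.288 CPM in PM. Lamb 1 alone was high in each of these muscles, and in ST the locus had no count in any lamb. The 3 loci differed among lambs (FDR = 1.8e-11, 1.9e-15 and 1.3e-12). With 280 of 304, 577 of 610 and 184 of 207 counts in lamb 1, all 3 had entered the set through that lamb, so this difference is a description. The call for LL of XLOC_025745 (FDR = 5.5e-09) was lost without lamb 1 (FDR = 0.579), as were those of XLOC_025742 and XLOC_025746 (FDR = 0.217 and 0.901). ENSOARG00000005581 itself had a mean of 404 CPM in lamb 1 and 29.7 to 79.8 CPM in the other lambs, with r = 0.876 to XLOC_025745.

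**Figure D4:**
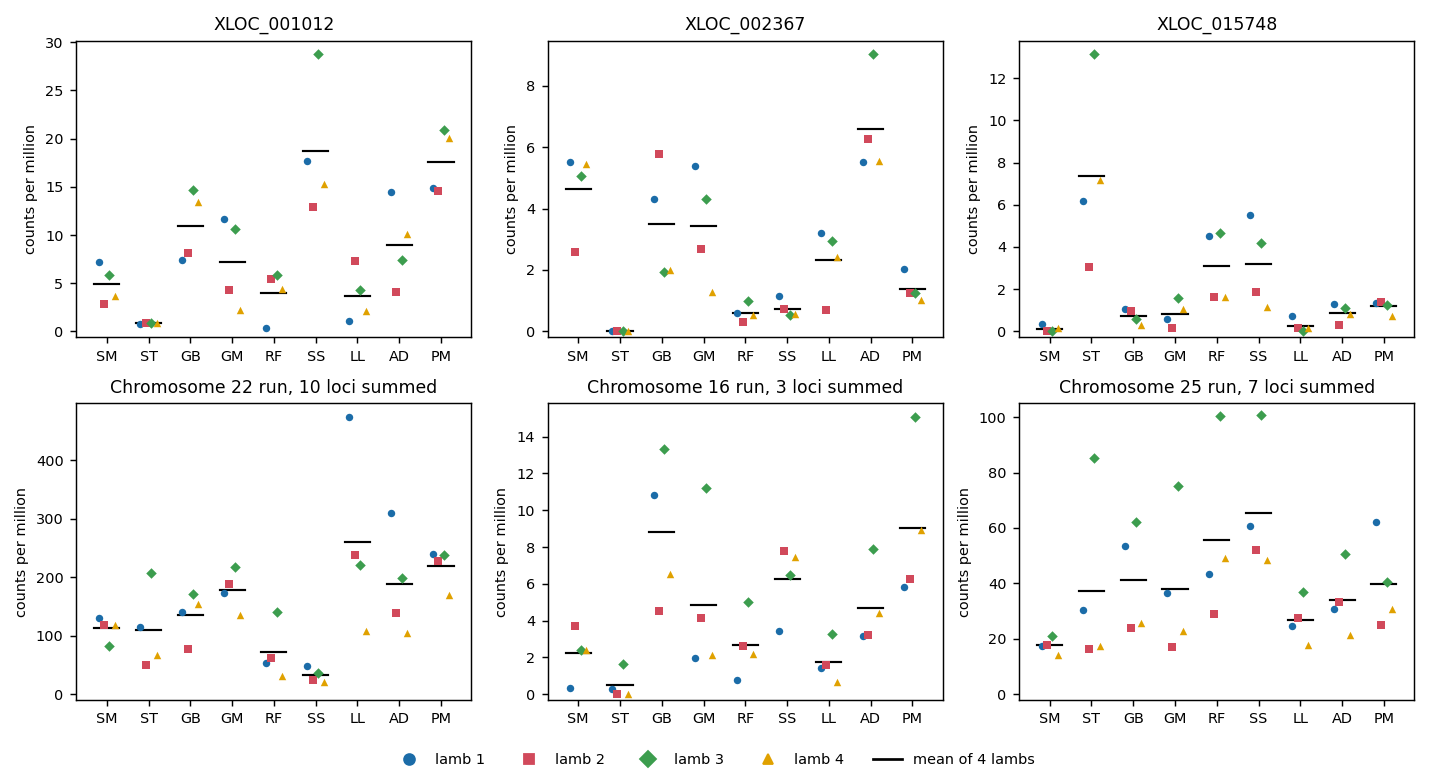
Level in CPM (y axis) by muscle (x axis) in each of the 36 libraries, with colour and shape for the lamb and a line at the mean of 4 lambs, for 3 single loci and 3 sums over runs of called loci. XLOC_001012 and the chromosome 16 run have their lowest mean in ST and high values in PM, XLOC_002367 has no count in ST, XLOC_015748 is highest in ST, the chromosome 22 run is lowest in SS and the chromosome 25 run lowest in SM.

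The next members by level, XLOC_029217 and XLOC_029336 on unplaced scaffolds, varied widely within muscles. XLOC_029336 had 176, 1887, 1143 and 516 CPM in SS of lambs 1 to 4, 5.65, 97.5, 69.7 and 1401 CPM in ST and 0.394, 173, 16 and 249 CPM in RF. Libraries of the same muscle thus differed by orders of magnitude, and neither locus passed for muscle (joint FDR = 0.0638 and 0.0355) or lamb (FDR = 0.243 and 0.25). After these values were seen, 24 members, counting XLOC_029336, were found with r of at least 0.9 to it across the 36 libraries. Of these 18 lie on unplaced scaffolds, and of all 12780 tested loci 25 reached this r, none of them with an Ensembl identifier.

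In sum the 24 loci had 796, 10089, 5856 and 2832 CPM in SS of lambs 1 to 4, 433, 5768, 2991 and 348 CPM in LL, 5906, 1771, 2757 and 784 CPM in AD and 3150.2, 167, 446 and 3439 CPM in PM. In ST they had 31.8, 416, 424 and 8069 CPM, in SM 164, 279.7, 726 and 1699.8 CPM, in GB 22.5, 282, 520.5 and 711 CPM, in GM 585, 310.4, 48.2 and 1032 CPM and in RF 3.55, 1138, 80.3 and 1598 CPM. The muscles overlapped widely, and the highest library, SS of lamb 2, had 10089 CPM where the lowest, RF of lamb 1, had 3.55 CPM. They held 6.74% of the counts of the members. Of the 42 members higher in SS, 7 belong to this set, 5 of the 24 passed the joint test of muscles and 0 that of lambs. Since they vary together, those 7 calls are not separate observations.

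**Figure D5:**
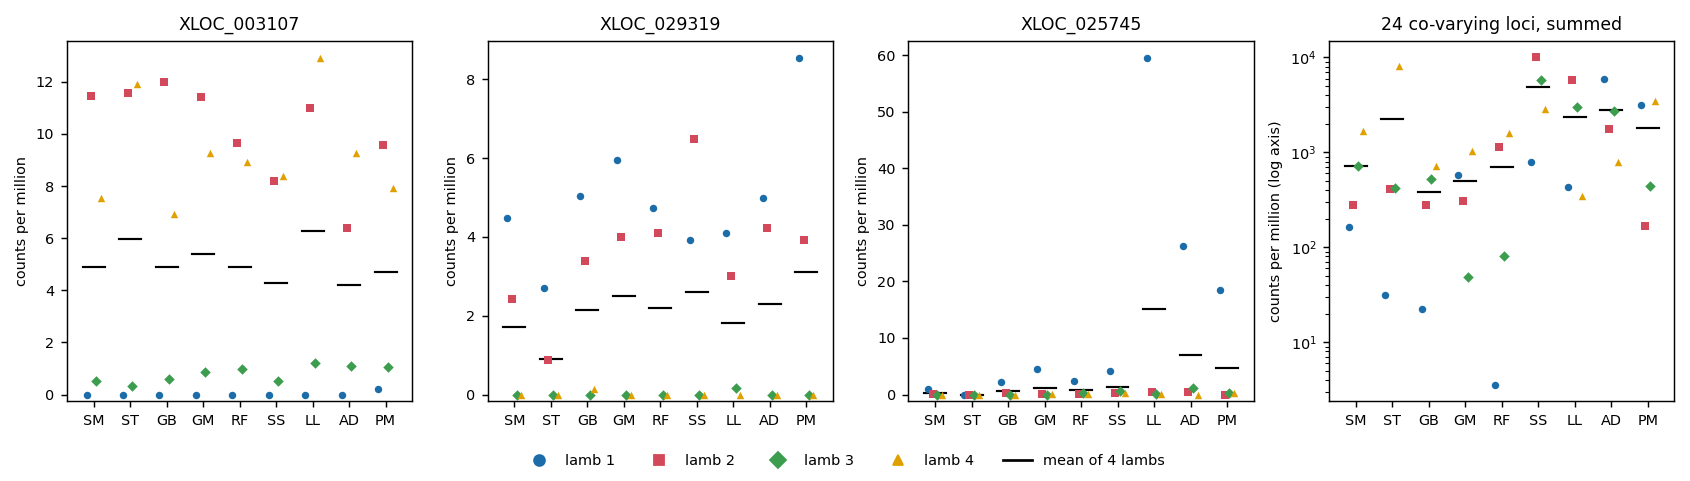
Level in CPM (y axis) by muscle (x axis) in 36 libraries, with colour and shape for the lamb and a line at the mean, for 3 loci that differ among lambs and, on a log axis, the sum of 24 loci that vary together. XLOC_003107 is on in lambs 2 and 4, XLOC_029319 in lambs 1 and 2, XLOC_025745 is high in lamb 1 in LL, AD and PM, and the sum runs from 3.55 to 10089 CPM.

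At 8 of the 11 positions that the study lists for unannotated transcripts, a member was found. They were listed from these samples, so their direction is not independent evidence. Beside XLOC_001012, XLOC_015748 and, in the chromosome 3 run, XLOC_021981, these were a group on chromosome 7, XLOC_014828 on chromosome 2 and XLOC_029213 on an unplaced scaffold. XLOC_014828 lies 1860 bases from ENSOARG00000020189 and reached 3.78, 7.88, 5.05 and 7.23 CPM in the 4 SM libraries and 10.6, 23.2, 17.5 and 22.9 CPM in SS, with SM lower (log2FC -1.19, SE 0.04, FDR = 0.000366). XLOC_029213 reached 0.344, 0.286, 0 and 0.161 CPM in SM of lambs 1 to 4 and 1.15, 4.75, 0.877 and 0.762 CPM in SS, and was called higher in SS (log2FC 1.43, SE 0.24, FDR = 0.00159), although without lamb 2 it no longer passed, at a log2FC of 1.21 (FDR = 0.168). With 47 of its 196 counts in SS, it had entered the set through that muscle, so its call is a description.

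The group on chromosome 7 was lower in SM by less than the fold threshold. XLOC_026971, XLOC_026972 and XLOC_026683, from 46246545 to 46290277, had log2FC of -0.89, -0.85 and -0.86 in SM (FDR = 0.000638, 0.00157 and 0.000492). Without lamb 4 none of them passed an FDR of 0.01 (0.022, 0.0718 and 0.0332), and without lamb 3 XLOC_026971 and XLOC_026972 did not (0.0123 and 0.0133). XLOC_026971 reached 6.88, 11.9, 4.52 and 7.71 CPM in SM of lambs 1 to 4 and 18.6, 20, 18.2 and 23.4 CPM in SS, without overlap. Without SM of lamb 2 alone, XLOC_026971 and XLOC_026683 passed the fold threshold, at -1.09 and -1.17.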

How the data were processed

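RNA-Seq was run on 9 muscles of 4 lambs (36 libraries). The authors aligned 100-base paired reads to Oar_v3.1 with TopHat2 2.0.13, assembled loci with Cufflinks 2.2.1 and deposited raw read counts per locus from HTSeq, one file per sample, unnormalized. Each of 31136 loci was used once (394 repeated entries were dropped). File starts count from 0 and are given here from 1. Strand, exon lengths and genome sequence were not used here.

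Counts were fitted in edgeR 4.0.16 (R 4.3.3) with TMM and terms for muscle and animal, over the 12780 loci with at least 180 counts, by the quasi-likelihood test with Benjamini-Hochberg adjustment over all of them. CPM are per TMM-normalized library, and correlations use log2 CPM (prior count 2). The pairing by animal comes from the labels, and libraries of an animal deviated together (mean r 0.226 over 144 pairs, -0.0742 between animals). The code was tested on simulated counts. Alternatives were the likelihood ratio test, DESeq2 1.42.0, other size factors, totals without the 4 most counted loci, other filters, no block and each animal left out. Replicates are separate lambs.

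Members and gene lists were chosen with earlier results of these data known. Named were the 6 loci highest by median CPM, the 10 of smallest p for muscle, the leading call of each muscle with the same sign in 4 of 4 lambs, the 5 of smallest p for lamb, the 3 of least spread, those at positions the study lists as unannotated transcripts, and 3 on either side of the limit. Of 34 gene symbols looked up by position, 27 were placed, and the other marker lists were not analysed here.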

Additional observations from a re-analysis of the deposited data

Results flagged for a closer look

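In each of the 9 muscles, the 4 lambs were compared for 31 named loci, and a library was picked out where its gap to the nearest other lamb took up more of the range of the group than Dixon's critical value for 4 samples allows. This was so in 35 of 279 groups (12.5%). The loci are not independent of each other, and some were named for their differences among lambs. This share can therefore not be set against a chance rate. In 31 the library was the highest of its muscle and in 4 the lowest. Lamb 1 accounted for 23, lamb 2 for 5, lamb 3 for 3 and lamb 4 for 4. The loci concerned number 14.

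The values are highest of their muscle unless called lowest. XLOC_030796 had 5826 CPM in LL of lamb 1 (lowest). XLOC_029217 had 2010 CPM in ST of lamb 4. XLOC_029336 had 1401 CPM in ST of lamb 4. XLOC_021980 had 1.93 CPM in GB of lamb 3. XLOC_002367 had 2.58 CPM in SM of lamb 2 (lowest). XLOC_025745 had 1.03 CPM in SM of lamb 1, 2.16 CPM in GB of lamb 1, 4.54 CPM in GM of lamb 1, 2.37 CPM in RF of lamb 1, 4.14 CPM in SS of lamb 1, 59.6 CPM in LL of lamb 1, 26.3 CPM in AD of lamb 1 and 18.5 CPM in PM of lamb 1. XLOC_025742 had 0.344 CPM in SM of lamb 1, 0.433 CPM in ST of lamb 4, 0.852 CPM in GM of lamb 1, 33 CPM in LL of lamb 1, 11.8 CPM in AD of lamb 1 and 9.003 CPM in PM of lamb 1. XLOC_029313 had 4.6 CPM in SS of lamb 1. XLOC_005907 had 1.83 CPM in ST of lamb 3 and 22.1 CPM in GM of lamb 3. XLOC_025746 had 0.269 CPM in ST of lamb 1, 0.9002 CPM in GB of lamb 1, 3.12 CPM in GM of lamb 1, 15.7 CPM in LL of lamb 1, 7.88 CPM in AD of lamb 1 and 5.85 CPM in PM of lamb 1. XLOC_004997 had 35 CPM in RF of lamb 4 and 23.2 CPM in PM of lamb 1 (lowest). XLOC_026971 had 16.4 CPM in AD of lamb 2. XLOC_026683 had 12.4 CPM in ST of lamb 1 (lowest). XLOC_029213 had 2.78 CPM in RF of lamb 2, 4.75 CPM in SS of lamb 2 and 1.59 CPM in LL of lamb 2. Values of XLOC_025742, XLOC_025745 and XLOC_025746 are from neighbouring loci of chromosome 6 that were high in lamb 1.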

How the results depend on the processing

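Changes of test and filter moved some counts by more than 1.5 times. The likelihood ratio test gave 418 members differing among muscles, 22 lower in ST, 3 higher and 1 lower in GB, 22 higher in GM, 6 lower in RF, 4 lower in LL and 6 higher in AD. DESeq2 gave 2 higher in GB and 0 lower in LL, and edgeR's filter by muscle gave 1 higher in RF. With no filter 475 members differed among muscles, 258 calls were higher and 239 lower in a muscle. By muscle these were 77 lower in SM, 29 lower in ST, 5 higher and 36 lower in GB, 24 higher and 26 lower in GM, 8 higher and 22 lower in RF, 82 higher in SS, 55 higher and 6 lower in LL, 45 higher and 4 lower in AD, and 23 higher and 3 lower in PM. The other size factors and totals moved no count by that much.

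The lamb was a block in the design because the 9 muscles of a lamb share an animal. With no replicate block, that is without this pairing, 47 members differed among muscles and 269 among lambs, 40 calls were higher and 16 lower, with 1 lower in SM, 7 lower in ST, 0 higher in GB, 1 higher in GM, 0 higher and 0 lower in RF, 18 higher and 8 lower in SS, 7 higher and 0 lower in LL, 1 higher in AD and 3 higher in PM.

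With 1 lamb, or 1 of the libraries SM and LL of lamb 2, left out, members differing among muscles ranged from 82 to 218 and among lambs from 228 to 424, calls higher from 54 to 123 and lower from 27 to 70. Members higher ranged from 0 to 3 in SM, 7 to 11 in ST, 0 to 2 in GB, 2 to 18 in GM, 0 to 2 in RF, 10 to 71 in SS, 12 to 30 in LL, 1 to 3 in AD and 4 to 16 in PM. Members lower ranged from 3 to 25 in SM, 3 to 16 in ST, 1 to 3 in RF, 10 to 27 in SS and 0 to 2 in LL. Those single libraries were left out after the data had been seen. The balance of higher to lower calls turned in GB (5 to 36) and GM (24 to 26) with no filter. In ST it turned with no block (8 to 7) and without lamb 4 (7 to 3), and in SS it turned without lamb 3. The fold change checked for each named locus kept its sign under these alternatives. It was that of the muscle the locus was named for, or else of the muscle with its smallest FDR. Other contrasts could change sign, as in PM for XLOC_025742, with a log2FC of 2.16 in the main fit and -0.025 without lamb 1. At a median of 1.52 CPM, few counts per library limit what most of these loci can show, and the cause of the moves was not tested.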
